A study of Mus musculus with 6 samples.

Results

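The constant regions of immunoglobulins were followed by isotype in RNA of the middle small intestinal mucosa from 3 alk-SMase KO mice and 3 WT mice, with 1 library per mouse. Values of 3 libraries stand in the order K79S, K82S, K86S for KO and W83S, W89S, W90S for WT. By name 10 genes were chosen, 6 of heavy chains (Igha, Ighm, Ighg1, Ighg2b, Ighg2c and Ighg3) and 4 of light chains (Igkc, Iglc1, Iglc2 and Iglc3). Identifiers in the table stood beside the values of other genes, so each identifier was first put back on its own row by rank. Of 22700 rows, 12402 received a gene this way, among them 7 of the 10 chosen genes: Igha, Ighm, Ighg2b, Igkc, Iglc1, Iglc2 and Iglc3. The IgG genes Ighg1, Ighg2c and Ighg3 were not analysed here, so IgG is given by Ighg2b alone.

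Both groups were of the strain C57BL/6. In KO mice exon 2 of the alk-SMase gene, Enpp7, had been deleted with Cre and loxP, which shifts the reading frame; WT mice carried no deletion. Alk-SMase is a gut enzyme that hydrolyses sphingomyelin. The age and the sex of the mice were not given in the sources used here, nor which Cre line made the deletion. The values are FPKM, read counts divided by gene length and by the depth of the library, and the number of reads behind a value is unknown.

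An antibody is built of 2 heavy and 2 light chains, and the constant region of the heavy chain sets its isotype. IgM is made first, and B cells then switch to IgG or IgA by recombination of the heavy chain locus. Most plasma cells of the gut lamina propria secrete IgA, which the J chain joins into dimers and the epithelial receptor Pigr carries into the lumen. Light chains are kappa (Igkc) or lambda (Iglc1, Iglc2, Iglc3), and mouse antibodies use kappa far more often. Peyer's patches and lymphoid follicles of the gut wall also hold B cells that carry IgM on their surface. In bulk RNA fewer cells of a type and less RNA per cell cannot be told apart.

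Markers of the small intestinal epithelium were abundant in every library. Fabp2, a fatty acid binding protein of enterocytes, lay between 5432 and 11224 FPKM, Apoa1 between 11160 and 14702 FPKM, and the keratin gene Krt8 between 1694 and 3117 FPKM. Library W83S stood apart. The 10 restored genes of the stomach and pancreas summed to 43361 FPKM there, 8.97% of all its FPKM, against 1.08 to 11.03 FPKM in the other 5 libraries. The leading genes were Tff1, Pgc and Gkn1, at 15727, 15082 and 6251 FPKM in W83S. Enpp7 was listed at 605, 129 and 670 FPKM in the KO libraries and at 406, 667 and 495 FPKM in the WT libraries. A value over the whole gene does not separate a transcript without exon 2 from the intact one, so it does not check the genotypes. Over all genes, K82S weighed most on the comparison of genotypes. With all 6 libraries 1 of 13089 rows passed the test, whereas 1184 rows passed without K82S.

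The 7 constant regions spanned a wide range of levels, in the same order in all 6 libraries for the 5 most abundant. Igkc was highest, with a mean of 1838 FPKM ± 735 (SD, n = 6), followed by Igha with 685 ± 214, Iglc1 with 150 ± 57.1, Ighm with 36.3 ± 35.2 and Ighg2b with 17.0 ± 27.6. Igkc exceeded Igha by 1.93 to 3.69 times within a library. Igha exceeded Ighm by 8.36 times in K82S and by 94.1 times in K86S, the extremes. At the low end the order was not fixed. Iglc2 had a mean of 11.5 ± 7.57 and Iglc3 of 9.71 ± 7.96 FPKM. Ighg2b exceeded Iglc2 in 2 of 6 libraries, and Iglc2 exceeded Iglc3 in 5 of 6. Differences between these neighbours were not tested.

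**Figure D1:**
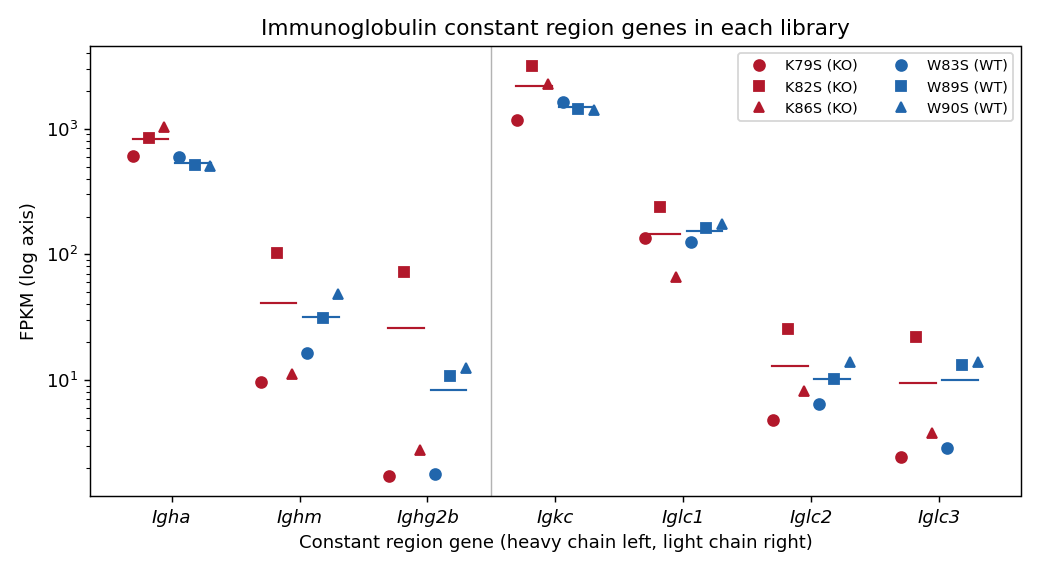
FPKM of each constant region gene (log axis) in the 3 KO libraries (red) and the 3 WT libraries (blue), with horizontal lines for the genotype means. The KO libraries of Igha lie at or above 605 FPKM and the WT libraries at or below 592 FPKM, while for the other 6 genes the genotypes overlap.

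Igha (identifier ENSMUSG00000095079.6) encodes the constant region of IgA. Its place is chromosome 12 of mm10 (GRCm38, GENCODE M21), 113254830 to 113260236, minus strand. Igha was at 605, 849.8 and 1041 FPKM in KO mice and at 592, 515 and 507 FPKM in WT mice. Every KO mouse exceeded every WT mouse, also with W83S left out, but the lowest KO value (K79S) and the highest WT value (W83S) were close. Genes of the stomach and pancreas took 8.97% of all FPKM in W83S, which lowers its value of Igha. Whether W83S stays below K79S with those genes left out of the scaling was not tested. The log2 fold change of KO over WT on log2(FPKM + 1) was 0.60 ± 0.25 (SE, 95% interval 0.01 to 1.18), which did not pass limma's test after Benjamini-Hochberg adjustment over 13089 rows (unadjusted p = 0.047, adjusted p = 0.393). An exact permutation test (two-sided) reached p = 0.1, the smallest that 3 libraries against 3 allow. Of all rows tested, 5.9% had every KO library above every WT library, 11.3% had the reverse, 17.2% had no overlap in either direction, and 12.5% had an unadjusted p below the same limit. Among the 7 constant regions, only Igha had every KO library above every WT library, and none had the reverse. Only Igha had an unadjusted p below 0.05. In limma this p of Igha was 0.013 without K79S and 0.074 to 0.146 when any other library was left out. Under the other alternatives of filter, scaling, pseudocount, weights and variance it ranged from 0.012 to 0.078. Without K82S its log2 fold change was 0.56 (adjusted p = 0.269), and without W83S it was 0.67 (adjusted p = 0.542).

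The heavy chain genes Igha, Ighm and Ighg2b each have 1 transcript for the secreted form and 1 for the membrane form, which splices out the end of the secreted form. The coding ends of the secreted forms, from that splice site to the stop codon, are shown because the J chain binds IgA and IgM through them. That of Ighg2b is shown for comparison. Capitals mark the cysteine codon, which is followed by a tyrosine codon and the stop codon, and through whose cysteine the J chain is attached in IgA and IgM. All 3 are on the minus strand of mm10.
Igha, chr12:113258768-113258829: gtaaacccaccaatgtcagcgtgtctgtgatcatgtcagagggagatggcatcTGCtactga
Ighm, chr12:113420867-113420928: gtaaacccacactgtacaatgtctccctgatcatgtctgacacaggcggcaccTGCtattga
Ighg2b, chr12:113306389-113306396: gtaaatga
The ends of Igha and Ighm are each 62 bases long with 1 cysteine codon, whereas that of Ighg2b has 8 bases and none. The FPKM sum both forms of a gene, so secreted and membrane RNA were not separated.

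Jchain, which encodes the J chain, was at 60.2, 162 and 122 FPKM in the KO libraries. In the WT libraries it was at 76.7, 71.7 and 59.4 FPKM. K82S and K86S lay above all WT libraries and K79S lay among them. The log2 fold change was 0.62 ± 0.37 (SE, limma adjusted p = 0.482). There were 10.04, 5.23 and 8.54 FPKM of Igha per FPKM of Jchain in the KO libraries and 7.72, 7.18 and 8.53 in the WT libraries. The means were 7.94 ± 2.46 and 7.81 ± 0.68 (SD, n = 3), a difference well within the spread of the KO mice. K82S had the lowest ratio and the highest level of Jchain.

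Ighm (ENSMUSG00000076617.9) encodes the constant region of IgM, and spans 113418558 to 113422730 of the same chromosome and strand. It was at 9.67, 102 and 11.1 FPKM in the KO libraries, and at 16.5, 30.9 and 48.1 FPKM in the WT libraries. K82S was the highest of all libraries, and the other 2 KO libraries were the lowest. Its log2 fold change was -0.35 ± 0.90 (SE, 95% interval -2.50 to 1.80, limma adjusted p = 0.890). This value rested on K82S: without it, both KO libraries lay below all 3 WT libraries and the log2 fold change was -1.41 (adjusted p = 0.107). Of all rows tested, 32.1% had every KO library below every WT library when K82S was left out.

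Ighg2b (ENSMUSG00000076613.4), the constant region of IgG2b, is found there from 113302965 to 113307933. It was at 1.73, 72.6 and 2.75 FPKM in the KO libraries. In the WT libraries it was at 1.78, 10.8 and 12.4 FPKM. The highest library exceeded the lowest by 42.1 times, the widest range of the 7 constant regions. The log2 fold change was 0.26 ± 1.31 (SE, limma adjusted p = 0.945), and it turned to -1.25 without K82S (adjusted p = 0.331). It was -0.47 without W83S (adjusted p = 0.957). Of the 2628 distinct windows of 50 bases, the read length, in its annotated transcripts, 4.15% also occur in Ighg1, Ighg2c or Ighg3. Reads from these windows cannot be assigned to 1 IgG gene.

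Set against the summed FPKM of the 3 heavy chain genes, Igha made up 98.15%, 82.98% and 98.7% in the KO libraries, and 97.0%, 92.5% and 89.3% in the WT libraries. Ighm made up 1.57%, 9.93% and 1.05% in the KO libraries and 2.71%, 5.54% and 8.49% in the WT libraries. The share of Ighg2b was 0.28%, 7.09% and 0.26% in the KO libraries and 0.29%, 1.93% and 2.18% in the WT libraries. The mean share of Igha was 93.3% ± 8.92 in KO and 93.0% ± 3.86 in WT (SD, n = 3), so it did not differ beyond the spread. The difference of 0.32 percentage points became 5.47 without K82S and 2.35 without W83S. Among these 3 heavy chain genes Igha thus led in every library, and the libraries K82S, W89S and W90S had the largest shares of Ighm and Ighg2b.

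**Figure D2:**
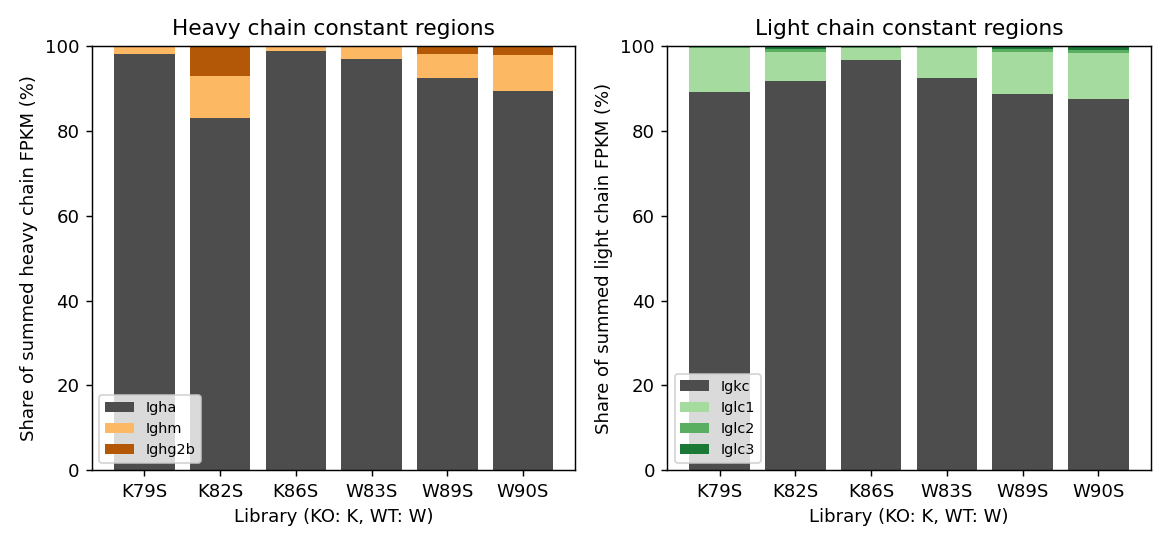
Share of each constant region gene in the summed FPKM of the heavy chain genes (left) and the light chain genes (right), in percent, for each library. The bars of Igha reach from 82.98% in K82S to 98.7% in K86S, and those of Igkc from 87.4% in W90S to 96.7% in K86S.

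Igkc (ENSMUSG00000076609.2), the only kappa constant region, lies on the plus strand of chromosome 6 from 70726435 to 70726966. It was at 1165, 3135 and 2253 FPKM in the KO libraries. In the WT libraries it was at 1636, 1444 and 1397 FPKM. The KO libraries included both the lowest and the highest 2 values. The log2 fold change was 0.44 ± 0.37 (SE, 95% interval -0.45 to 1.33, limma adjusted p = 0.629). It was 0.12 without K82S (adjusted p = 0.852) and 0.84 without K79S (adjusted p = 0.760), where both KO libraries lay above all WT libraries, as 8.84% of all rows did. Kappa made up 87.4% to 96.7% of light chain FPKM, with means of 92.5% ± 3.82 in KO and 89.5% ± 2.59 in WT (SD, n = 3).

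Iglc1 (ENSMUSG00000105906.1) is the constant region of the lambda 1 chain (chromosome 16, minus strand, 19061618 to 19062071). It was at 134, 238 and 65.7 FPKM in the KO libraries, and at 126, 161 and 174 FPKM in the WT libraries. The lowest value was in K86S, the library with the highest Igha. Its log2 fold change was -0.24 ± 0.45 (SE, limma adjusted p = 0.841), and 0.23 without K86S (adjusted p = 0.781). Iglc1 made up 83.3% to 94.9% of lambda FPKM. Iglv1, the variable segment joined to it, was at 137, 229 and 77.6 FPKM in the KO libraries and 111, 138 and 114 FPKM in the WT libraries. Iglv2 was at 17.9, 29.0, 15.3, 16.4 and 14.9 FPKM in K79S, K82S, W83S, W89S and W90S, and was listed at 0 in K86S.

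Iglc2 (ENSMUSG00000076937.3, minus strand of chromosome 16, 19198396 to 19200351) and Iglc3 (ENSMUSG00000105547.1, same strand, 19065230 to 19065681) encode the constant regions of lambda 2 and lambda 3. Their coding sequences are shown because near-identical copies can share reads. They are the first 300 aligned coding bases of the single-exon transcripts on the minus strand of mm10, and capitals mark the bases that differ between them.
Iglc2, chr16:19198553-19198852: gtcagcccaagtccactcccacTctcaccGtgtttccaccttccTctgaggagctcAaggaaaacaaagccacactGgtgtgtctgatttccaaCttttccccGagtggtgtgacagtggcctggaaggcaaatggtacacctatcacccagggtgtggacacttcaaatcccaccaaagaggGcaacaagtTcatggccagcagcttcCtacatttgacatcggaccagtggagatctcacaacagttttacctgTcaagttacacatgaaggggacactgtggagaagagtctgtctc
Iglc3, chr16:19065382-19065681: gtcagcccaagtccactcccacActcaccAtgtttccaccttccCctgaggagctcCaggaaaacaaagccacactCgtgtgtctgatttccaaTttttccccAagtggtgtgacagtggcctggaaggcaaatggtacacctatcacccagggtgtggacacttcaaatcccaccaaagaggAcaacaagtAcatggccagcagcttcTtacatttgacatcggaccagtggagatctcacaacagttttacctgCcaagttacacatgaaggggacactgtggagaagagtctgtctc
They differ at 11 of 314 aligned bases (96.5% identical), whereas Iglc1 is 73.2% identical to Iglc2 and 73.9% to Iglc3. Of the windows of 50 bases, 7.65% of those of Iglc2 and 10.7% of those of Iglc3 occur in the other gene, against none of the 405 windows of Iglc1. Reads from these shared windows cannot be assigned to Iglc2 or to Iglc3. The share of reads affected was not measured.

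Iglc2 was at 4.79, 25.6 and 8.20 FPKM in the KO libraries, and at 6.49, 10.2 and 13.9 FPKM in the WT libraries. Iglc3 was at 2.44, 22.0 and 3.76 FPKM in the KO libraries and at 2.87, 13.3 and 13.9 FPKM in the WT libraries. Both were highest in K82S, and the genotypes overlapped. Their log2 fold changes were 0.06 ± 0.56 (adjusted p = 0.970) and -0.37 ± 0.83 (SE, limma adjusted p = 0.870). Without K82S they were -0.56 (adjusted p = 0.369) and -1.21 (adjusted p = 0.295). Lambda as a whole made up 10.8%, 8.34% and 3.33% of light chain FPKM in the KO libraries and 7.62%, 11.3% and 12.6% in the WT libraries. K86S lay below the range of the WT libraries and the other KO libraries inside it.

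None of the 7 constant regions passed the threshold of an adjusted p under 0.05 and a fold change of 1.5 in limma, where 0.00764% of all rows did. The log2 fold changes were above 0 for 4 of the 7, against 42.3% of all rows tested, and their median was 0.06, against -0.06 over all rows. In all, 6 of the 7 had their highest value in K82S. So had 9 of 9 restored genes of T cells, 3 of 3 of B cells and 5 of 7 of macrophages. It was 5 of 12 for the epithelium and 0 of 4 for smooth muscle. The share over all rows was not computed. Scaling each library to its summed FPKM without the immunoglobulin rows moved the median of all rows to 0.09, and no constant region changed its sign under it. For light chain FPKM per heavy chain FPKM, the heavy chain sum held Igha, Ighm and Ighg2b and lacked Ighg1, Ighg2c and Ighg3. This ratio was 2.12, 3.34 and 2.21 in the KO libraries and 2.90, 2.92 and 2.82 in the WT libraries. The WT mice lay close together (2.88 ± 0.055) and inside the range of the KO mice (2.56 ± 0.68, SD, n = 3).

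**Figure D3:**
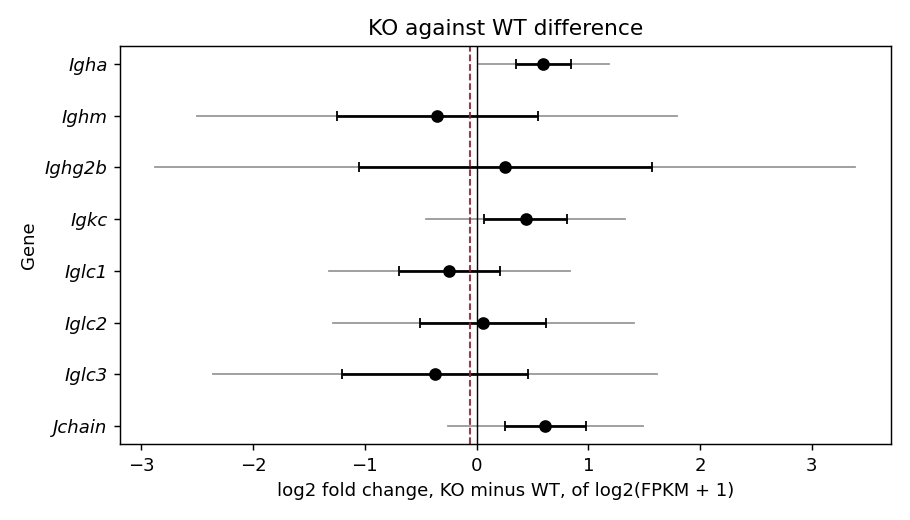
Log2 fold change of KO over WT on log2(FPKM + 1) for the 7 constant regions and Jchain. Black bars are SE, grey lines 95% intervals from limma with 3 libraries per genotype, and the red dashed line the median of all rows (-0.06). The interval of Igha begins at 0.01, and those of the other 7 genes include 0.

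The constant regions were compared across the 6 libraries by Pearson's r of log2(FPKM + 1) over these 6 points, a description in which the points share library and depth. Ighm correlated with Ighg2b (r = 0.96), Iglc2 (r = 0.95), Iglc3 (r = 0.94) and Iglc1 (r = 0.82), and had r = -0.08 with Igha. Igha correlated with Igkc (r = 0.78). Igkc also had r = 0.70 with Iglc2, 0.61 with Ighg2b, 0.51 with Ighm, 0.42 with Iglc3 and 0.09 with Iglc1. Over the 5 libraries without K82S, Ighm had r = 0.92 with Ighg2b, 0.89 with Iglc2, 0.93 with Iglc3, 0.69 with Iglc1 and -0.67 with Igha, and Igha had r = 0.81 with Igkc. Igkc then had r = 0.16 with Iglc2, -0.16 with Ighg2b, -0.22 with Ighm and -0.15 with Iglc3. Iglc1 had r = -0.99 with Igha and -0.83 with Igkc.

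Among 6803 restored genes with a mean of at least 5 FPKM, the 5 most like Igha were Igfbp7 (r = 0.99), Igkv4-74 (r = 0.98), Trip12 (r = 0.97), Igkv6-32 (r = 0.96) and Slc26a2 (r = 0.96). Igkv4-74 and Igkv6-32 are kappa variable segments. Igfbp7, an IGF binding protein, was at 15.1, 23.4 and 33.5 FPKM in the KO libraries and 14.4, 9.95 and 10.8 FPKM in the WT libraries. Jchain stood in place 60 (r = 0.85). For Ighm the 5 were Rpph1, Gabarapl2, Mzb1, Cnp and Snx2 (r from 0.985 to 0.994). Mzb1 is a chaperone of B cells and plasma cells. With Igha it had r = 0.03 and place 2474.

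The signalling chains of the B cell receptor, Cd79a and Cd79b, stood in places 16 and 15 for Ighm (r = 0.97 each). Cd79a was at 2.32, 33.1 and 3.83 FPKM in the KO libraries and at 2.76, 10.3 and 21.2 FPKM in the WT libraries. Cd79b was at 2.27, 28.2 and 2.70 FPKM in the KO libraries and at 3.10, 12.9 and 21.5 FPKM in the WT libraries. Both were high in K82S, W89S and W90S and low in K79S, K86S and W83S, as were Ighg2b and Iglc3. Spib, a transcription factor of B cells and of the epithelium over follicles, was at 1.85, 8.16 and 3.28 FPKM in the KO libraries and 1.23, 5.05 and 6.81 FPKM in the WT libraries.

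These were the 3 of 18 B cell genes with a restored row, and the other genes of the list were not analysed here. Their summed FPKM ranged from 6.44 to 69.5 in KO and from 7.10 to 49.5 in WT. None of the 3 passed in either direction, and their median log2 fold change was -0.26. Without K82S the KO sums were 6.44 to 9.81. Ltb, the lymphotoxin chain that lymphoid follicles need, was at 2.42, 11.7 and 2.48 FPKM in the KO libraries and 2.48, 6.95 and 10.6 FPKM in the WT libraries. It stood in place 28 for Ighm (r = 0.95). Ccl20, a chemokine of the follicle-associated epithelium, was at 0.16, 2.17 and 1.82 FPKM in the KO libraries and 1.35, 1.10 and 18.7 FPKM in the WT libraries. None of the 3 restored genes of 14 in the list of Peyer's patches and follicle epithelium passed, and their median was -0.36. How far follicles in the sampled piece bear on the levels of Ighm and Ighg2b was not tested.

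**Figure D4:**
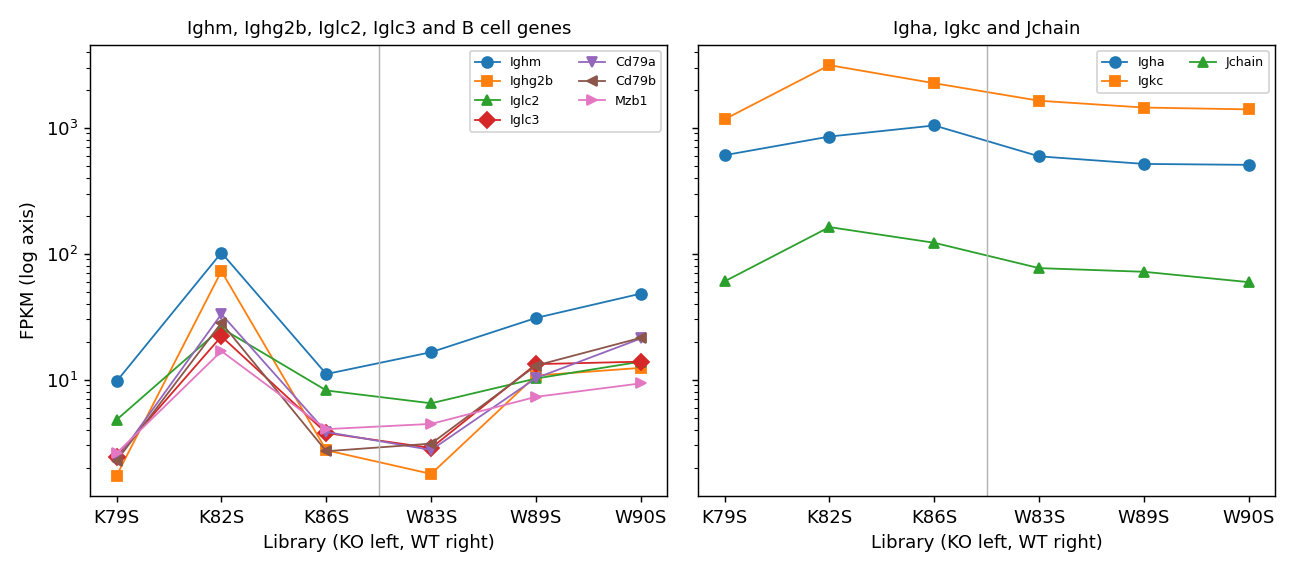
FPKM (log axis) by library of Ighm, Ighg2b, Iglc2, Iglc3, the B cell genes Cd79a and Cd79b and Mzb1 (left), and of Igha, Igkc and Jchain (right), with 1 point per mouse. On the left the curves peak in K82S, with Ighm at 102 FPKM, and on the right Igha reaches 1041 FPKM in K86S.

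Of 16 plasma cell genes 10 had a restored row and 9 were tested. None passed, 5 had a log2 fold change above 0, and the median was 0.08. Prdm1, the transcription factor Blimp-1 that drives plasma cell differentiation, was at 2.56, 3.64 and 2.55 FPKM in the KO libraries. In the WT libraries it was at 1.62, 1.25 and 1.21 FPKM. The genotypes did not overlap, with a log2 fold change of 0.72 ± 0.16 (SE, limma adjusted p = 0.393). Prdm1 is also expressed in enterocytes and T cells. Besides Prdm1, only Fkbp11 among the 9 had an unadjusted p under 0.05 in limma, and it was lower in KO. It was at 0.53, 1.49 and 0.36 FPKM in the KO libraries and 1.96, 1.43 and 1.63 FPKM in the WT libraries. Its log2 fold change was -0.62 ± 0.25 (SE, limma adjusted p = 0.393), and the genotypes overlapped. Xbp1, a factor of secretory cells, had a log2 fold change of -0.01 ± 0.17 (SE, limma adjusted p = 0.992). Sdc1, the plasma cell marker CD138 that epithelial cells also express, was at 34.8, 61.02 and 19.4 FPKM in the KO libraries and 27.8, 52.3 and 24.1 FPKM in the WT libraries.

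The variable segments gave a second reading of the same antibodies. They were 65 heavy, 63 kappa and 2 lambda segments with a restored row, which leaves out segments low in W83S. The summed FPKM of heavy segments was 496, 817 and 769 in KO mice and 338, 365 and 208 in WT mice. That of kappa segments was 671, 1814 and 1082 in KO mice and 658, 588 and 422 in WT mice. In both sums the lowest KO mouse exceeded the highest WT mouse. For kappa these were close, with K79S at 671 and W83S at 658 FPKM. Genes of the stomach and pancreas took 8.97% of all FPKM in W83S, which lowers its sums. Whether the kappa sums stay apart with those genes left out of the scaling was not tested. Of the 65 heavy segments 59 had a log2 fold change above 0 (median 0.70), and in 14 (21.5%) every KO library exceeded every WT library. Of the 63 kappa segments 46 were above 0 (median 0.63), and in 9 (14.3%) the KO libraries were all higher. The share over all rows was 5.9%. Related segments can share reads, and the segments of a library come from the same cells, so they are not independent. None of the segments passed limma's test (16 of 65 heavy and 13 of 63 kappa at an unadjusted p under 0.05, against 12.5% of all rows).

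Some leading segments were shared between mice and others were not. Ighv1-26 was the highest heavy segment of K79S, W83S and W90S, Ighv14-2 that of K86S and W89S, and Igkv6-15 the highest kappa segment of W89S and W90S. The leading kappa segment of K79S, of the Igkv1 family, was at 69.5, 169 and 97.9 FPKM in the KO libraries and at 35.2, 16.3 and 26.8 FPKM in the WT libraries. Its log2 fold change was 2.03 ± 0.40 (SE, limma adjusted p = 0.393). Ighv1-26 was at 50.8, 82.4 and 41.0 FPKM in the KO libraries and at 29.4, 34.5 and 29.1 FPKM in the WT libraries. Igkv9-124 reached 177 FPKM in K86S, 16.4% of its kappa segments, and lay between 4.53 and 36.8 FPKM elsewhere. Ighv14-2 was at 133 FPKM in K86S, 17.3% of its heavy segments, at 44.1 FPKM in W89S, 12.1% of its heavy segments, and between 6.52 and 18.9 FPKM in the other 4 libraries. The top 5 kappa segments held 54.8% of the kappa sum in K86S and 31.2% to 38.9% in the other libraries. The segments named here were chosen after their values were seen, as the highest of a library.

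For transport of antibodies and Fc receptors 4 of 10 genes had a restored row, and none passed. Pigr was at 778, 853 and 893 FPKM in the KO libraries and at 799, 513.5 and 949 FPKM in the WT libraries. It did not follow Igha, with W90S highest for Pigr and lowest for Igha. Fcgrt, the neonatal Fc receptor, lay between 35.1 and 61.4 FPKM with overlapping genotypes. Fcer1g, the signalling chain of several Fc receptors, was at 7.89, 10.1 and 9.92 FPKM in the KO libraries and 6.48, 6.79 and 5.65 FPKM in the WT libraries. Its log2 fold change was 0.49 ± 0.15 (SE, limma adjusted p = 0.393).

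For homing of plasma cells, Ccl25, the small intestinal chemokine that draws IgA plasma cells, was at 66.0, 82.4 and 64.3 FPKM in the KO libraries and 78.3, 98.2 and 115 FPKM in the WT libraries. Its log2 fold change was -0.44 ± 0.21 (SE, limma adjusted p = 0.403). Itgb7, a subunit of the gut homing integrin, was at 5.17, 7.79 and 4.81 FPKM in the KO libraries and 2.69, 3.92 and 4.15 FPKM in the WT libraries (log2 fold change 0.58 ± 0.21, adjusted p = 0.393). Ccl28, another chemokine for IgA plasma cells, lay between 1.45 and 5.20 FPKM. None of these 4 restored genes of 10 passed, and the median log2 fold change was -0.33.

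Of 20 genes for class switching and germinal centres 6 had a restored row. None passed, 4 had a log2 fold change above 0 and the median was 0.15. Tnfsf13, the plasma cell survival factor APRIL, was at 8.47, 11.2 and 15.1 FPKM in the KO libraries and 13.5, 11.1 and 16.9 FPKM in the WT libraries. Nos2 ranged from 11.8 to 84.7 FPKM and Tgfb1, the cytokine that directs switching to IgA, from 1.14 to 2.51 FPKM, with overlapping genotypes in both.

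The separation seen for Igha was also seen in T cell markers. In 8 of 9 tested T cell genes every KO library lay above every WT library, a separation found in 5.9% of all rows, and the median log2 fold change was 0.63. The summed FPKM of these genes ranged from 41.8 to 90.1 in KO and from 32.0 to 35.0 in WT, and from 41.8 to 46.7 in KO without K82S. Trbc2, a constant region of the T cell receptor beta chain, was at 8.96, 24.0 and 8.96 FPKM in the KO libraries and 7.59, 7.20 and 7.71 FPKM in the WT libraries. Cd8a, the co-receptor of cytotoxic T cells, was at 7.04, 11.05 and 6.05 FPKM in the KO libraries and 5.44, 3.84 and 3.87 FPKM in the WT libraries. None of the 9 passed limma's threshold, and 6 of them had an unadjusted p under 0.05, against 12.5% of all rows. Of 7 macrophage genes 6 had a log2 fold change above 0 with a median of 0.20, and none passed; the complement gene C1qa lay between 19.4 and 30.6 FPKM. The 4 restored smooth muscle genes summed to 17.9 to 40.2 FPKM in KO and 15.3 to 50.8 FPKM in WT. At limma's unadjusted p under 0.05, where 12.5% of all rows lay, stood 2 of 9 plasma cell genes, 2 of 4 of antibody transport and Fc receptors, 1 of 4 of homing and 1 of 7 macrophage genes, and none of the tested genes of B cells, of class switching, of Peyer's patches, of the epithelium, of smooth muscle or of the stomach and pancreas. Whether a different content of immune cells in the sampled tissue bears on Igha was not tested.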

How the data were processed

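Total RNA had been taken up in TRIzol, and TruSeq libraries were read as single ends of 50 bases on an Illumina HiSeq. The authors used trim-galore for trimming, HISAT2 for mapping to mm10 and StringTie for quantification, and deposited the FPKM of each gene. Tool versions, annotation and strand handling are not given in the sources used here. FPKM hold no read counts, so no counting interval was computed, and precision rests on 3 libraries per genotype. Summed FPKM ranged from 393152 to 495362. FPKM are relative values, so RNA from other tissue in a library lowers the values of all its other genes.

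Identifiers were ranked by K79S and rows by W83S, both descending, and joined at given rank offsets. In the result 99.7% of single-transcript genes and 5.80% of genes with several transcripts had values of at most 6 decimals, against 45.9% and 41.0% as deposited. Rows that were under 1 FPKM in over 4 libraries were left out. The model was limma's (version 3.58.1, R 4.3.3; lmFit, eBayes with trend) on log2(FPKM + 1) over 6 libraries without covariates, with Benjamini-Hochberg adjustment over 13089 rows. A row passed at an adjusted p under 0.05 and a fold change above 1.5 in either direction. The limma step was tested on simulated data with known changes larger than those of the constant regions. That test does not show whether changes of their size would be found. Fold changes on this scale understate those of low genes. Single genes also had an exact two-sided permutation test. Sums, shares and ratios have no test. Python 3.11.15, numpy 2.4.6, scipy 1.17.1 and pandas 2.3.3 were used, and sequences came from the GENCODE M21 transcripts. The rule for named genes took the chosen genes, the 3 most abundant restored members of each list and any past the threshold, Enpp7, Jchain, Pigr, Cd79a, Mzb1 and the 5 genes most like Igha. Ighg1 could not be matched for likeness, so Ighm was added after the values were seen, as were the variable segments, the correlations without K82S and the further genes described. The genes, lists and tests were chosen with earlier results of these data known. Alternatives were other pseudocounts, filters, scalings, weights and variance models, named rows only, and each library left out. The list of other constant and surrogate light chain genes (7 genes) had no restored row and was not analysed here.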

Additional observations from a re-analysis of the deposited data

How the results depend on the processing

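None of the 7 constant regions passed the threshold under any of 15 alternatives, with adjusted p from 0.107 to 1.00 in limma. Of 105 fold changes recomputed, 94 kept their direction and 11 reversed. With array weights Ighg2b was at -0.83 and Iglc2 at -0.46. Over the libraries left out in turn, the log2 fold change ranged from -1.41 to 0.22 for Ighm, -1.25 to 1.13 for Ighg2b, -0.69 to 0.23 for Iglc1, -0.56 to 0.54 for Iglc2 and -1.21 to 0.16 for Iglc3. That of Igkc ranged from 0.12 to 0.84. That of Igha ranged from 0.42 to 0.81, where the lack of overlap fixes the sign. The reversals came without K79S (Ighm 0.22, Iglc3 0.16), without K82S (Ighg2b -1.25, Iglc2 -0.56), without K86S (Ighm 0.13, Iglc1 0.23), without W83S (Ighg2b -0.47, Iglc2 -0.20) and without W90S (Ighm 0.002). The cause was not tested. The number of rows past the threshold was 1 with all libraries, 0 with a pseudocount of 0.1 or 0.01, 2 with array weights and 0 to 1184 without 1 library, the highest without K82S (51 higher and 1133 lower in KO). The number of constant regions without overlap was 1 to 2 of 7 when a library was left out, with Igkc added without K79S and Ighm without K82S. Of all rows tested, 22.5% had no overlap in either direction without K79S and 43.9% without K82S. Between genotypes the share of Igha differed by -2.38 to 5.47 percentage points, Igha per Jchain by -0.92 to 1.48 and light per heavy chain by -0.72 to -0.11 with a library left out. Counting Ighd in the heavy chain sum was not run, since Ighd has no restored row. No paired analysis was possible because the labels do not say which KO and WT mice form a pair. The number of reads behind the low values of Ighg2b, Iglc2 and Iglc3 is unknown.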
